A study of Homo sapiens with 4 samples.

Results

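The 36 genes described here encode the machinery that copies DNA and the enzymes that make its building blocks: the origin licensing factors, the replicative helicase, the polymerases and other fork proteins, and the enzymes of deoxynucleotide supply. The list is one of gene symbols, drawn up with earlier results of these data known, and the rule applied to it uses intensity only to choose a gene's probe set. Each gene was read from the probe set annotated to that symbol alone with the highest mean intensity over the 4 arrays. All 36 had such a probe set, out of 19775 genes so represented on the array. All 36 also passed the filter on dim genes, a mean intensity of at least 113.6, which left 12759 genes called measured. That mean takes in the arrays of cells given YAP, so a gene dim in control cells can pass through high values there. On the control (vector) array ORC1 (28.0), GINS4 (47.4), CDC45 (101.1) and CLSPN (111.6) were below 113.6. The 4 steps of the 36 genes were licensing (5 genes), helicase (12 genes), polymerases and fork (15 genes) and nucleotides (4 genes).

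The cells were MCF10A, an immortalized but non-tumorigenic line of human breast epithelium, and total RNA of 4 cultures went onto 1 Affymetrix array each. A pQCXIH retrovirus delivered either no insert (vector) or a form of YAP: wild type (YAP-WT), the mutant YAP-S94A, or the mutant YAP-W1W2. YAP is the transcriptional coactivator restrained by the Hippo pathway. The S94A substitution impairs binding to TEAD transcription factors, and W1W2 carries mutations in both WW domains. The medium was the same for all 4 and held insulin, EGF, cholera toxin, hydrocortisone and horse serum, and whether the infected cells were pools or clones is not given in the sources used here. With 1 array in each group no difference has a replicate check, so no p-value or standard error is given and a fixed size of 2-fold is used to count genes. A floor of 72.9, the 40th percentile of intensity, was applied before log2 was taken, and a fold against a value at the floor is written as at least that fold.

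In the background of cell biology, a replication origin is licensed in G1, when the origin recognition complex, CDC6 and CDT1 load the ring of MCM2 to MCM7 onto DNA, and geminin (GMNN) blocks loading again later in the cycle. At the start of S phase CDC45 and the GINS complex join the ring to make the active helicase, and polymerases, the sliding clamp PCNA and its loader RFC then build the fork. Ribonucleotide reductase, thymidylate synthase and thymidine kinase supply deoxynucleotides. Many of these genes are known targets of E2F transcription factors, and their transcripts are low in resting cells.

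The arrays carried an epithelial profile. Of the basal mammary markers looked up, KRT5, KRT14, CDH3, ITGB4 and LAMB3 were above the floor on every array, with a summed intensity of 85646.3 to 110515.2, while of 3 endothelial markers CDH5 and VWF were at or below the floor on all 4 and PECAM1 was above it on all 4, at 472.6 to 680.9. Of the other marker lists, the summed intensity ran from 125.5 to 397.0 for 3 immune genes, 0 of which were above the floor on all arrays, and from 637.4 to 1244.2 for 3 fibroblast genes, of which 2 were. On the YAP arrays the 3 probe sets of YAP1 itself lay between -0.24 and 0.60 (log2) of the vector array, and whether they read the constructs is not known. The bacterial spike-in control bioB was lower than in vector by log2 values of -0.47 for YAP-WT, -0.83 for YAP-S94A and -1.28 for YAP-W1W2, and the actin control probe sets were higher by 0.43, 0.68 and 0.80. The part of these shifts in the results below was not tested. In RNA from a whole culture, a larger share of cells in S phase and more transcript in each such cell cannot be told apart.

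Replication genes were higher on each YAP array than on the vector array. The vector array gave the lowest intensity for 35 of the 36 genes, the exception being RFC5, whereas it was the lowest array for 39.0% of all measured genes. The YAP-S94A array was the highest for 29 of the 36, YAP-W1W2 for 6 and YAP-WT for 1, the thymidine kinase TK1. With the arrays centred on the median of measured genes these counts were 23, 12 and 1, and vector stayed the lowest for 35. Among all measured genes, as deposited, YAP-S94A was the highest array for 30.5%, YAP-W1W2 for 22.4% and YAP-WT for 24.5%. These shares were not counted with centring. The commonest order of levels, in 22 of the 36 genes, was YAP-S94A, YAP-W1W2, YAP-WT and then vector. How often it occurs among all measured genes was not counted. With 1 array each, no neighbours in this order can be separated by a replicate spread.

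**Figure D1:**
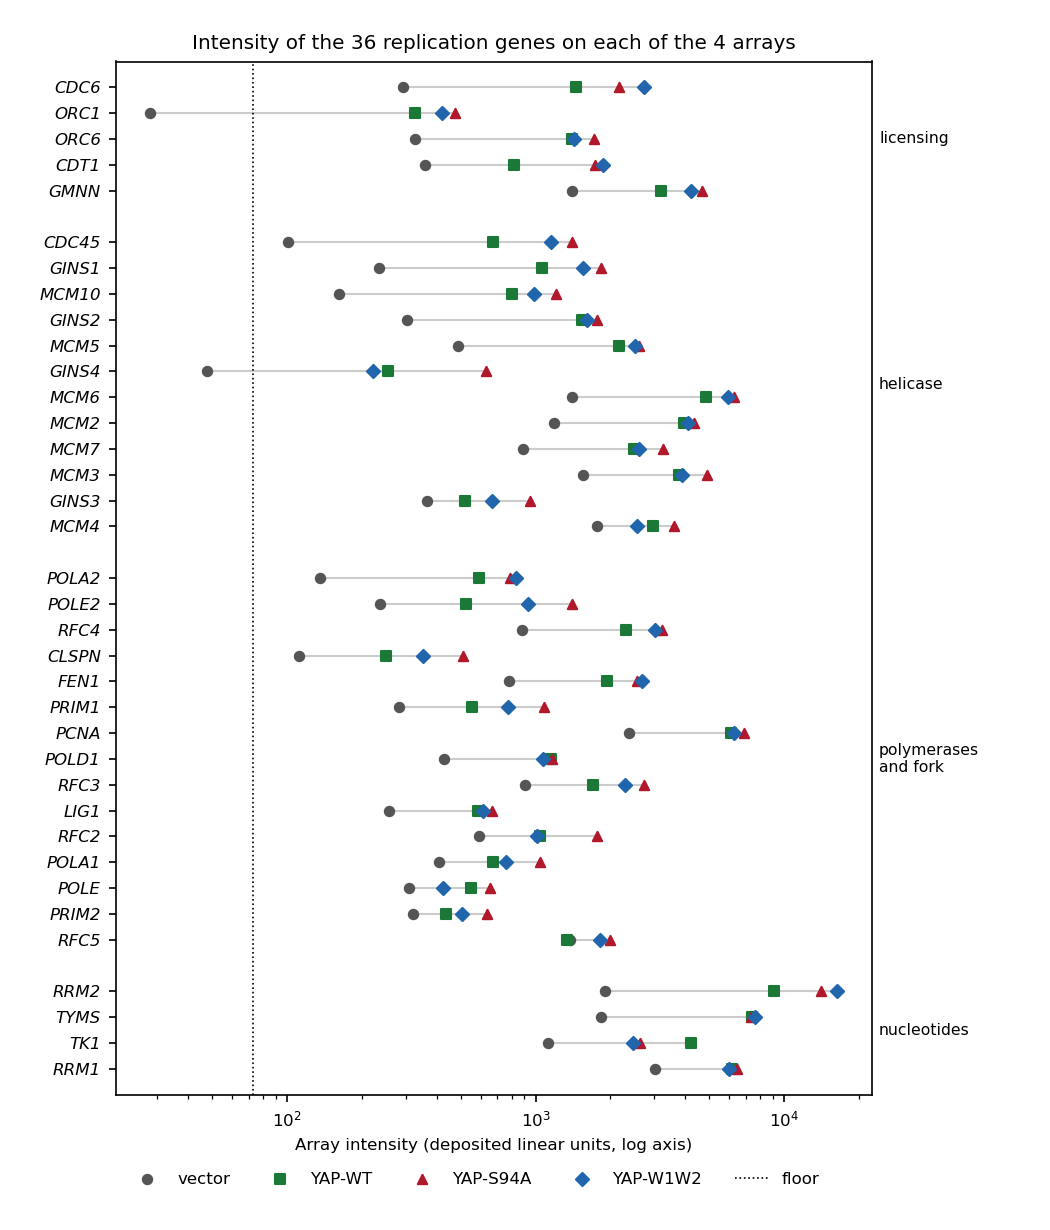
Deposited intensity (linear units, logarithmic axis) of the 36 replication genes on the array of vector and of each YAP form, 1 point per array, in 4 blocks by step, with the floor of 72.9 as a dotted line. The vector point lies at the left for 35 genes, those of ORC1 and GINS4 lie below the floor, and levels of different genes are not comparable because probe sets differ.

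Against vector, 27 of the 36 genes (75.0%) were at least 2-fold higher for YAP-WT, 34 (94.4%) for YAP-S94A and 28 (77.8%) for YAP-W1W2, and 0 were at least 2-fold lower in any. Over all measured genes the share at least 2-fold higher was 9.11% for YAP-WT, 10.3% for YAP-S94A and 11.4% for YAP-W1W2, and the share at least 2-fold lower was 4.95%, 6.53% and 8.4%. The median log2 fold of the 36 genes was 1.38, 1.87 and 1.63 in the same order, and that of all measured genes was 0.14, 0.14 and 0.10. These 3 comparisons share the vector array and are not independent of each other. When the arrays were instead centred on the median of measured genes, 24, 31 and 28 of the 36 genes passed 2-fold. With that centring, the higher share of all genes past 2-fold moved from 64.8% to 50.1% with YAP-WT and from 61.2% to 47.1% with YAP-S94A, and from 57.7% to 54.9% with YAP-W1W2.

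**Figure D2:**
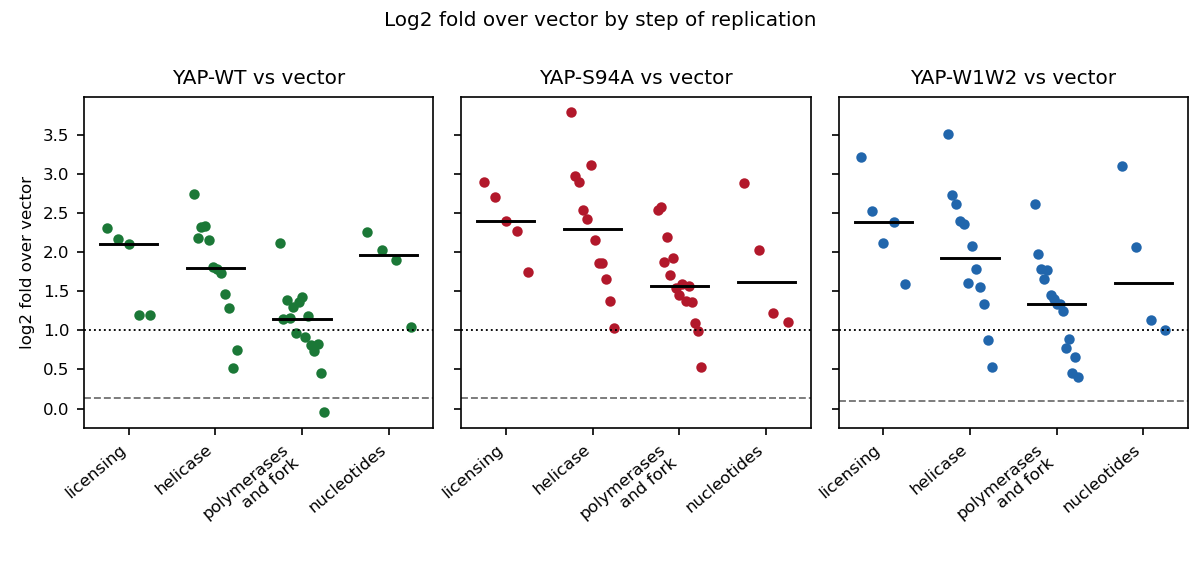
Log2 fold over vector of each replication gene (points) by step for YAP-WT, YAP-S94A and YAP-W1W2, with the step's median (bar), the 2-fold size (dotted line) and the median of all measured genes (dashed line). Every licensing gene lies above the 2-fold line on all 3 panels, and 7 of the 15 polymerase and fork genes lie below it with YAP-WT.

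Promoter letters were then examined to describe the list. Many of its genes are known E2F targets, and the motifs were chosen with earlier results of these data known. A high share of E2F letters is therefore not independent of how the genes and motifs were chosen. RefSeq promoter windows (GRCh38.p14, from 250 bases before to 50 bases after the start, the first window listed for a gene) were held for 33 of the 36 genes, all but MCM4, MCM5 and GINS4. The E2F letters searched on both strands were TTTCCCGC, TTTCGCGC, TTTGGCGC and TTTGCCGC, of which TTTCGCGC and TTTGGCGC can overlap on opposite strands. They occurred in 18 of the 33 windows (54.5%), in 3.33% of the windows of all 27305 symbols and in 5.06% of those of 10368 measured genes. By step, 7 of 9 helicase windows, 8 of 15 polymerase and fork windows, 2 of 5 licensing windows and 1 of 4 nucleotide windows held a match. The TEAD letters CATTCC occurred in 4 of 33 (12.1%), in 14% of all windows and in 11.2% of those of measured genes. Such matches describe letters and not binding.

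The windows of a list of mitosis genes, which were also higher on the YAP arrays, were searched for the same letters. The E2F letters were in 2 of 26 mitosis windows (7.69%). The CHR letters, TTTGAA or TTCGAA, known from promoters of late cell cycle genes, were in 19 of those 26 (73.1%) but in 2 of the 33 replication windows (6.06%), in 16.6% of all windows and in 11.7% of those of measured genes. CCAAT was in 18 of 33 replication windows (54.5%), 17 of 26 mitosis windows (65.4%), 35.7% of all and 36.9% of those of measured genes. The GC box letters GGGCGG were in 69.7% of replication windows, 65.4% of mitosis windows, 44.6% of all and 67.4% of those of measured genes. Median log2 folds of the 18 replication genes with and the 15 without an exact E2F match were 1.32 and 1.39 for YAP-WT, 1.94 and 1.74 for YAP-S94A, and 1.71 and 1.59 for YAP-W1W2.

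Stretches of 160 bases up to the start are printed for the gene with the highest mean log2 fold over vector in each step, with values at the floor, and for RFC5, the gene with the lowest. In licensing the choice of CDC6 depends on the floor, since the folds of ORC1 are lower bounds and could be larger. MCM6, added after the windows were seen, had the most exact E2F matches. Each sequence runs 5′ to 3′ on its gene's strand, and capitals mark the E2F letters, CCAAT or its complement, and TTTGGCGG. The last of these, an E2F-like variant with a final G, was also added after the windows were seen and occurred in 5 of the 33 windows (15.2%), in 0.681% of all and in 1.04% of those of measured genes.
CDC6, chr17:40287719-40287878, plus strand: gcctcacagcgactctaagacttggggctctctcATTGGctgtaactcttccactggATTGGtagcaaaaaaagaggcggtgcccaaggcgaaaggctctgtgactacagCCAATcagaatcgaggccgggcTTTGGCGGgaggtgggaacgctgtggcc
CDC45, chr22:19479760-19479919, plus strand: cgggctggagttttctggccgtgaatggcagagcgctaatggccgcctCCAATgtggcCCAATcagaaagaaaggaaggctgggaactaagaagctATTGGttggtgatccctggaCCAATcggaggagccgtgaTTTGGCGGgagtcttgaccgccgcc
POLA2, chr11:65261802-65261961, plus strand: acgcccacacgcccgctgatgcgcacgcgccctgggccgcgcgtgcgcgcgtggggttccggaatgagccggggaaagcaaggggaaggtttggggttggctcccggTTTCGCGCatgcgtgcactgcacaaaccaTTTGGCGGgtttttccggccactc
RRM2, chr2:10122579-10122738, plus strand: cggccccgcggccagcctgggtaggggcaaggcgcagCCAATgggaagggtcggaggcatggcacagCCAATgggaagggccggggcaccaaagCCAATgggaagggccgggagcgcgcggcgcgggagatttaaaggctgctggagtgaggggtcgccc
RFC5, chr12:118016543-118016702, plus strand: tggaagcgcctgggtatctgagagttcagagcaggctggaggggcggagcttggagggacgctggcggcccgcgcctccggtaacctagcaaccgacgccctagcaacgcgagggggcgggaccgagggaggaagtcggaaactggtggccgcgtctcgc
MCM6, chr2:135876444-135876603, minus strand: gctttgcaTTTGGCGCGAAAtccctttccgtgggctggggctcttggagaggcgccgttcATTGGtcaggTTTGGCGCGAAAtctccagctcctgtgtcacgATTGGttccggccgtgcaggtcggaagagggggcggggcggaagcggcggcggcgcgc

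In these stretches CDC6 and CDC45 hold no exact E2F match (the full CDC6 window has one just after the start) but carry TTTGGCGG close to the start, below 3 and 4 copies of CCAAT. POLA2 carries both E2F forms and no CCAAT. RRM2 has 3 copies of CCAAT and neither E2F form. MCM6 has 2 copies of CCAAT and a pair of sites at which TTTGGCGC and the complement of TTTCGCGC overlap. RFC5 holds none of the marked letters in this stretch, and 1 CCAAT in the rest of its window.

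Licensing genes were at least 2-fold higher on all 3 YAP arrays, 5 of 5 in each. Their median log2 fold over vector was 2.10 for YAP-WT, 2.40 for YAP-S94A and 2.38 for YAP-W1W2. CDC6, the ATPase that loads the helicase ring, had intensities of 293.0 in vector, 1448.1 for YAP-WT, 2166.1 for YAP-S94A and 2721.0 for YAP-W1W2. It was higher on both mutant arrays than with YAP-WT, and its second probe set gave log2 folds of 2.59, 2.73 and 2.96 over vector. CDT1, the loading partner of CDC6, measured 358.6 in vector, 819.0 for YAP-WT, 1728.2 for YAP-S94A and 1871.6 for YAP-W1W2. The mutant arrays again lay above YAP-WT, by 2.11-fold and 2.29-fold, although its other probe set gave log2 differences of only 0.43 and 0.30.

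ORC1, the origin recognition subunit that appears and is destroyed within each cycle, stood at 28.0 in vector, below the floor, and at 327.5, 475.0 and 418.5 with YAP-WT, YAP-S94A and YAP-W1W2. It was therefore at least 4.49-fold, 6.52-fold and 5.74-fold higher. ORC6, another subunit of the same complex, was likewise lowest in vector, at 326.8 in vector, 1403.2 for YAP-WT, 1720.0 for YAP-S94A and 1421.6 for YAP-W1W2. GMNN, the inhibitor of CDT1, was higher as well, with 1400.6 in vector, 3187.5 for YAP-WT, 4669.9 for YAP-S94A and 4215.8 for YAP-W1W2. Loading factors and their inhibitor thus both lay above vector, with GMNN having the smallest log2 fold of the step with YAP-S94A (1.74) and YAP-W1W2 (1.59). The other origin recognition subunits, ORC2 to ORC5, did not reach 2-fold on any array, with log2 folds from -0.38 for ORC2 with YAP-W1W2 to 0.91 for ORC3 with YAP-S94A.

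Of the 12 helicase genes, 10 were at least 2-fold higher for YAP-WT, 12 for YAP-S94A and 10 for YAP-W1W2, and YAP-S94A was the highest array for all 12 as deposited and for 9 with median centring. Step medians were log2 folds of 1.80, 2.29 and 1.93, in which the folds of GINS4 are lower bounds. With the floor at the 20th percentile instead, they were 1.96, 2.29 and 2.15. CDC45, the cofactor that turns the loaded ring into a helicase, read 101.1 in vector, 676.5 for YAP-WT, 1403.2 for YAP-S94A and 1152.2 for YAP-W1W2. Its vector value was close to the floor. Its log2 folds of 2.74, 3.79 and 3.51 were the largest among those of the 36 members that were above the floor on all arrays. ORC1 cannot be ranked against it, because its folds are lower bounds. With log2 of intensity plus 16 and no floor, ORC1 stood at 2.96 and CDC45 at 2.56 for YAP-WT. In that setting CDC45 stayed above ORC1 with YAP-S94A and, narrowly, with YAP-W1W2. MCM10, which acts in helicase activation, read 161.6 in vector, 806.0 for YAP-WT, 1205.8 for YAP-S94A and 986.8 for YAP-W1W2. A further MCM10 probe set gave log2 folds of 2.49, 2.97 and 2.50, but the remaining measured one gave 0.19, 1.08 and 1.08.

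The ring subunits MCM2 to MCM7 spanned a range of folds. MCM5 had the largest, with 488.1 in vector, 2159.0 for YAP-WT, 2609.3 for YAP-S94A and 2505.4 for YAP-W1W2, and its other probe set gave nearly the same log2 folds, 2.21, 2.46 and 2.45. MCM6 followed at 1403.5, 4827.7, 6275.8 and 5931.9, and MCM2 at 1189.1, 3938.4, 4318.7 and 4093.8, in the same order of arrays. MCM4 had the smallest folds, with 1771.2 in vector, 2972.7 for YAP-WT, 3618.5 for YAP-S94A and 2564.9 for YAP-W1W2. Its log2 folds of 0.75 with YAP-WT and 0.53 with YAP-W1W2 were short of 2-fold, and it passed with YAP-S94A only at 1.03, a value that fell to 0.88 with median centring. Its 3 other measured probe sets gave 1.33 to 1.78 with YAP-S94A. MCM3 and MCM7 lay between, with log2 folds of 1.28 and 1.47 for YAP-WT, 1.66 and 1.86 for YAP-S94A and 1.33 and 1.55 for YAP-W1W2. The other measured probe set of MCM7 was short of 2-fold with YAP-WT (0.54) and YAP-S94A (0.99) and just past it with YAP-W1W2.

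The GINS complex, 4 subunits that travel with CDC45, was uneven. GINS1 measured 233.3 in vector, 1060.5 for YAP-WT, 1825.4 for YAP-S94A and 1551.1 for YAP-W1W2, and GINS2 measured 304.0, 1531.9, 1769.2 and 1606.5 in that order. Another probe set of GINS2 gave log2 folds of -0.37, 0.02 and 0.23, so its call rests on 1 of 2 measured probe sets. GINS3 was the lowest of the complex by fold, at 364.0 in vector, 520.6 for YAP-WT, 949.5 for YAP-S94A and 669.3 for YAP-W1W2, and passed 2-fold with YAP-S94A alone. GINS4 stood at 47.4 in vector, below the floor, with 255.3 for YAP-WT, 628.8 for YAP-S94A and 220.8 for YAP-W1W2. It was at least 3.50-fold, 8.63-fold and 3.03-fold higher, and was the 1 member at least 2-fold lower with YAP-W1W2 than with YAP-S94A (a log2 difference of -1.51). A second GINS4 probe set put YAP-W1W2 above YAP-S94A, by 0.40.

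Polymerase and fork genes had the lowest step medians against vector, at log2 folds of 1.15 for YAP-WT, 1.57 for YAP-S94A and 1.33 for YAP-W1W2, and 8, 13 and 10 of 15 passed 2-fold. The 4 genes of DNA polymerase alpha-primase, which lays the primers, differed among themselves. POLA2, its accessory subunit, read 135.8 in vector, 591.1 for YAP-WT, 789.7 for YAP-S94A and 830.6 for YAP-W1W2. The catalytic subunit POLA1 read 407.6, 674.4, 1042.8 and 756.9, and passed 2-fold with YAP-S94A alone. POLA2 rests on 1 probe set, since another measured one gave log2 folds of -0.10, -0.32 and 0.22. The primase subunits PRIM1 and PRIM2 had log2 folds of 0.97 and 0.45 for YAP-WT, 1.93 and 0.99 for YAP-S94A, and 1.45 and 0.66 for YAP-W1W2, and both were highest with YAP-S94A.

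The leading-strand polymerase epsilon showed a similar spread. Its second subunit POLE2 measured 237.0 in vector, 526.3 for YAP-WT, 1405.7 for YAP-S94A and 928.8 for YAP-W1W2, and had the largest difference of the 36 genes between YAP-S94A and YAP-WT, at 2.67-fold. The catalytic subunit POLE measured 308.2, 548.1, 657.4 and 422.5, at log2 folds of 0.83, 1.09 and 0.46. With median centring POLE did not pass 2-fold for YAP-S94A (0.94), nor POLE2 for YAP-WT (0.99). POLD1, the catalytic subunit of the lagging-strand polymerase delta, was nearly level over the YAP arrays, at 1151.7, 1166.7 and 1073.0 against 428.2 in vector. Its accessory subunits POLD2 and POLD3 and the small subunit POLD4 did not follow it together: POLD3 had log2 folds of 0.51, 1.09 and 0.74, POLD2 of 0.79, 0.56 and -0.18, and POLD4 was lower, at 963.3 in vector and 353.4, 480.1 and 527.7 on the YAP arrays.

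PCNA, the clamp that holds polymerases on DNA, read 2378.6 in vector, 6097.9 for YAP-WT, 6906.8 for YAP-S94A and 6265.9 for YAP-W1W2. Its loader subunits differed by gene. RFC4 passed 2-fold on each YAP array, at log2 folds of 1.39, 1.87 and 1.78. RFC3 passed with YAP-S94A (1.59) and YAP-W1W2 (1.33), and RFC2 with YAP-S94A only (1.57). The other measured probe set of RFC2 did not pass there (0.62), and the 2 others of RFC3 gave 1.68 and 0.86 for YAP-WT, where the one used gave 0.91. RFC5 stood at 1375.5 in vector, 1332.4 for YAP-WT, 1992.6 for YAP-S94A and 1820.0 for YAP-W1W2, and was the only member not above vector with YAP-WT by its brightest probe set. Its 2 other measured probe sets gave log2 folds of 1.21 and 1.83 for YAP-WT, 1.86 and 2.51 for YAP-S94A, and 1.36 and 1.74 for YAP-W1W2, so the place of RFC5 as the lowest gene depends on the probe set.

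The nuclease FEN1 and the ligase LIG1, which join lagging-strand fragments, both passed 2-fold on the 3 YAP arrays. FEN1 measured 784.6 in vector, 1938.5 for YAP-WT, 2563.3 for YAP-S94A and 2670.1 for YAP-W1W2, and LIG1 measured 257.8, 583.6, 667.3 and 614.3. CLSPN, which encodes claspin, the fork protein that relays replication stress to CHK1, measured 111.6 in vector, 249.1 for YAP-WT, 509.0 for YAP-S94A and 351.1 for YAP-W1W2. Its fold was thus graded over the YAP arrays, with log2 values of 1.16, 2.19 and 1.65, the first of which was 0.99 with median centring. Its other measured probe set also put YAP-S94A highest but YAP-W1W2 lowest, at 0.83, 1.10 and 0.67.

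In nucleotide supply, all 4 genes were at least 2-fold higher with YAP-WT and YAP-S94A and 3 with YAP-W1W2, where RRM1 missed by little. Step medians were log2 folds of 1.96, 1.62 and 1.60. RRM2, the subunit of ribonucleotide reductase that is made in S phase, measured 1909.8 in vector, 9105.0 for YAP-WT, 14066.8 for YAP-S94A and 16347.2 for YAP-W1W2. A second probe set of RRM2 gave nearly the same log2 folds, 2.27, 2.83 and 3.00. The large subunit RRM1, whose protein persists through the cycle, measured 3010.4, 6171.9, 6454.0 and 6004.0 and sat at the 2-fold size, with log2 folds of 1.04, 1.10 and 1.00. With median centring RRM1 stood at 0.87 with YAP-WT and 0.95 with YAP-S94A, short of 2-fold. RRM2B, the p53-inducible alternative to RRM2 and not a member, was lower, at 3190.2 in vector, 2046.4 for YAP-WT, 1065.0 for YAP-S94A and 1002.3 for YAP-W1W2.

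The thymidylate genes behaved differently over the YAP arrays. TYMS, thymidylate synthase, measured 1826.7 in vector and 7412.1, 7391.2 and 7651.4 on the YAP-WT, YAP-S94A and YAP-W1W2 arrays, 4.06-fold, 4.05-fold and 4.19-fold over vector. Its other probe set was not level, with log2 folds of 2.22, 1.68 and 1.96. TK1, the salvage kinase for thymidine, measured 1125.5 in vector, 4207.5 for YAP-WT, 2618.4 for YAP-S94A and 2469.2 for YAP-W1W2. It was the only member highest for YAP-WT, and its log2 differences from YAP-WT were -0.68 for YAP-S94A and -0.77 for YAP-W1W2. A second probe set of TK1 gave -0.70 and -0.15, so the difference with YAP-W1W2 was smaller there. DTYMK, the next kinase on the way to dTTP and not a member, was also highest with YAP-WT, at 899.6 in vector, 3583.1 for YAP-WT, 2241.0 for YAP-S94A and 2063.2 for YAP-W1W2.

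YAP-S94A and YAP-W1W2 were set against YAP-WT to ask which transcripts differ with each mutation. Both comparisons share the YAP-WT array. In YAP-S94A 34 of the 36 genes were above YAP-WT, with a median log2 difference of 0.51, against 0.01 for all measured genes. The 5 genes past 2-fold were POLE2 (1.42), GINS4 (1.30), CDT1 (1.08), CDC45 (1.05) and CLSPN (1.03), in log2 differences, or 13.9% of the 36, where 5.06% of all measured genes were at least 2-fold higher, and 0 were lower, where 6.27% of all were. With the mean over probe sets 2 of the 36 passed, POLE2 and CDC45, while CDT1 (0.76), CLSPN (0.65) and GINS4 (0.84) did not. In that setting 4.61% of all measured genes were at least 2-fold higher, so the share of the 36 was near the background. The 2 genes not above YAP-WT were TK1 and, by a margin that rounds to 0, TYMS, both of the thymidylate branch, and with median centring TK1 alone.

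In YAP-W1W2 29 of the 36 genes were above YAP-WT, with a median log2 difference of 0.25, against -0.04 for all measured genes. CDT1 alone passed 2-fold (1.19), which is 2.78% of the 36 against 3.91% of all measured genes, and 0 were lower, against 5.59%. CDT1 did not pass with the mean over probe sets (0.75). CDC6 (0.91), RRM2 (0.84), POLE2 (0.82) and CDC45 (0.77) came next, of which CDC6 passed with median centring (1.04), and the lowest were TK1 (-0.77), POLE (-0.38), MCM4 and GINS4 (each -0.21). Licensing genes had the largest step median, 0.40, and nucleotide genes the smallest, 0.00. Set directly against YAP-S94A, YAP-W1W2 was lower for 30 of 36 genes, among them all 12 helicase genes. The median was -0.17, against -0.07 for all measured genes. YAP-W1W2 was also lower for 27 of the 30 genes of the mitosis list, so this direction is not particular to the 36. These directions depend on the scaling: with median centring YAP-W1W2 was lower for 23 of 36 genes and 9 of 12 helicase genes, with a median of -0.05. GINS4 was the single gene past 2-fold there, lower, 2.78% of the 36 where 4.45% of all measured genes were lower, and 0 were 2-fold higher, where 4.98% of all were. The share of lower genes is near the background.

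**Figure D3:**
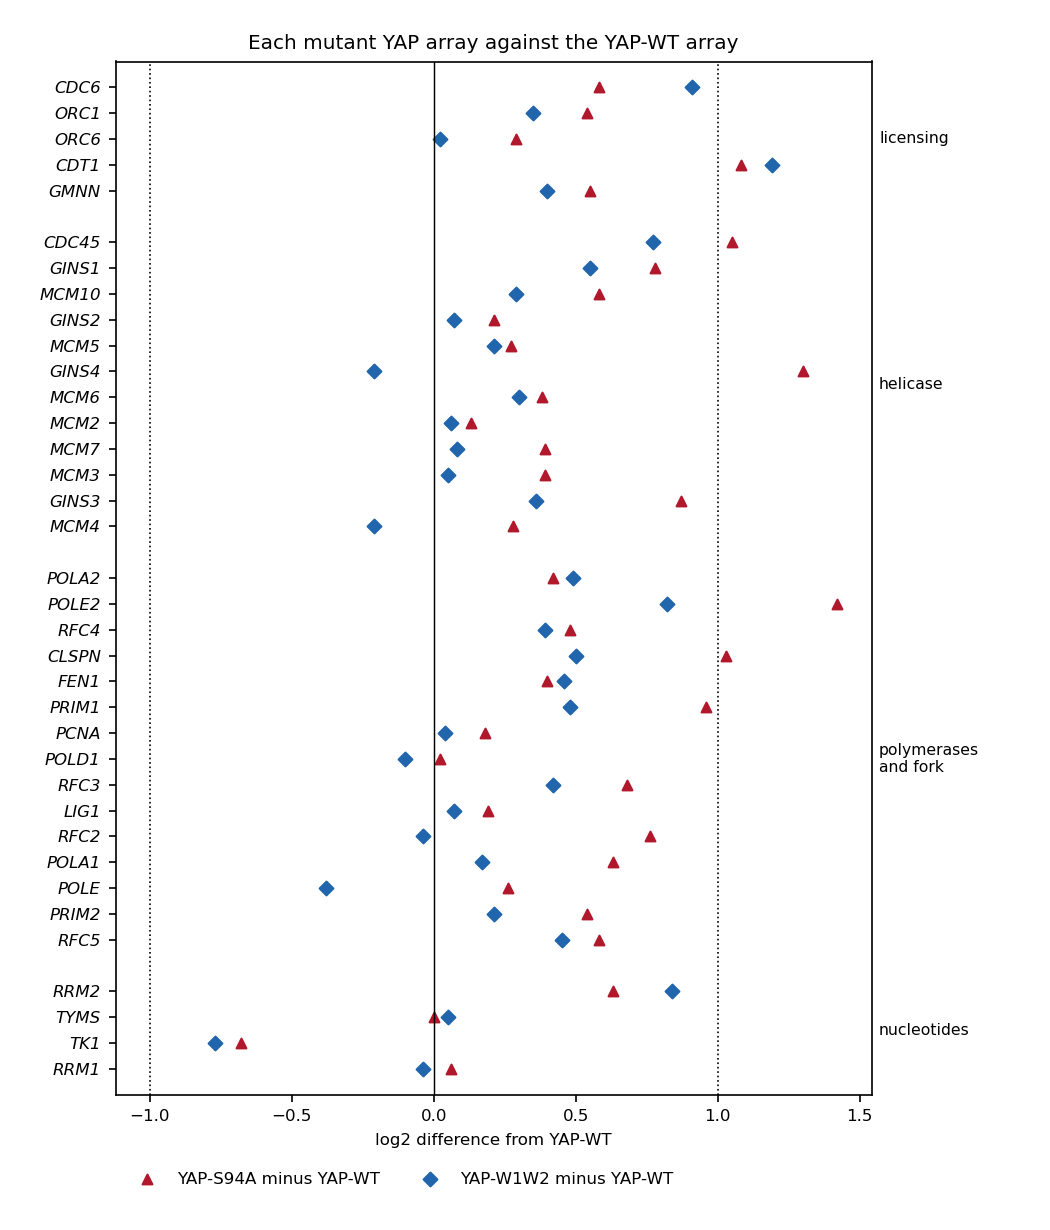
Log2 difference of YAP-S94A (triangles) and YAP-W1W2 (diamonds) from YAP-WT for each replication gene, in 4 blocks by step, with dotted lines at 2-fold. Most triangles lie right of 0, with POLE2 and GINS4 farthest, and both TK1 points lie left of it.

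Other probe sets of the same gene give further readings on each array, though they share its RNA and labelling. They are not an independent check. All probe sets of a gene were ranked by mean intensity over the same arrays to choose the one used. Only those that passed the filter on mean intensity are compared. The 36 genes had 69 probe sets, of which 60 were measured, and 19 genes had more than 1 measured. For those 19 the median distance between a gene's highest and lowest log2 fold over vector was 0.33 for YAP-WT, 0.75 for YAP-S94A and 0.47 for YAP-W1W2. Every measured probe set passed 2-fold for 8 of the 14 genes called for YAP-WT, 13 of 18 for YAP-S94A and 11 of 15 for YAP-W1W2. Opposite directions were seen for GINS2, POLA2 and RFC5 for YAP-WT, for POLA2 for YAP-S94A and for 0 genes for YAP-W1W2. Against YAP-WT, where the differences were smaller, 1 of the 19 genes had probe sets in opposite directions with YAP-S94A, POLA2, and 9 with YAP-W1W2. Every measured probe set passed 2-fold there for 0 of the 3 genes called with YAP-S94A and 0 of the 1 called with YAP-W1W2. For YAP-W1W2 against YAP-S94A, 9 of the 19 had opposite directions, and every probe set passed for 0 of the 1 called.

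**Figure D4:**
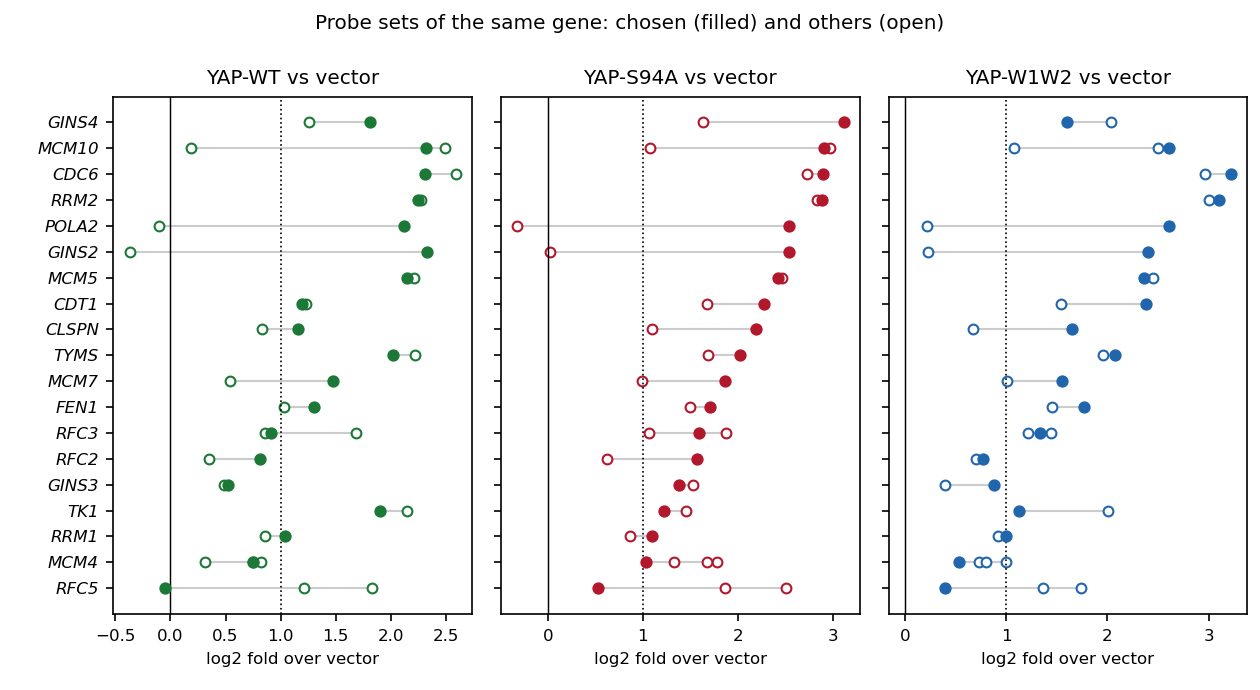
Log2 fold over vector of every measured probe set for the 19 replication genes with more than 1, filled for the probe set used and open for the others, on each YAP array, with a dotted line at 2-fold. CDC6, RRM2 and MCM5 have points close together, POLA2 and GINS2 have an open point near 0, and the open points of RFC5 lie to the right of its filled one.

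Other genes of the pathway were taken from lists that did not include the members. Of 38 further origin and fork factors, 13 were at least 2-fold higher with YAP-WT and 1 lower, 18 higher and 1 lower with YAP-S94A, and 11 higher and 0 lower with YAP-W1W2. The higher genes were 34.2%, 47.4% and 28.9% of the list, where 9.11%, 10.3% and 11.4% of all measured genes were higher, and 4.95%, 6.53% and 8.4% of all were lower. Their median log2 folds were 0.54, 0.92 and 0.64. The highest were ASF1B, a histone chaperone, at log2 folds of 2.47, 2.62 and 2.63, DTL, which directs CDT1 to destruction, at 1.87, 2.75 and 2.65, and UHRF1, a maintenance factor for DNA methylation, at 2.06, 2.60 and 2.13. The lowest were POLD4 (2.73-fold, 2.01-fold and 1.83-fold lower than vector), MCM9 (log2 folds of -0.15, 0.19 and -0.73) and ORC2 (0.05, 0.72 and -0.38). The single-stranded DNA binding subunits RPA1, RPA2 and RPA3 stayed under 2-fold, at 0.25 to 0.70.

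Of 29 measured genes of wider nucleotide supply, purine and pyrimidine synthesis among them, 3 were at least 2-fold higher and 0 lower for YAP-WT, 8 higher and 1 lower for YAP-S94A, and 3 higher and 1 lower for YAP-W1W2. The higher genes were 10.3%, 27.6% and 10.3% of the 29, where 9.11%, 10.3% and 11.4% of all measured genes were higher, so the first and last shares are near the background. The highest were the CTP synthase CTPS1 (log2 folds of 1.19, 1.64 and 1.87), DTYMK (1.99, 1.32 and 1.20) and the deoxycytidine kinase DCK (1.05, 1.30 and 1.42). The lowest were RRM2B, the mitochondrial thymidine kinase TK2 (-0.14, -0.83 and -0.47) and the GMP pathway enzyme IMPDH2 (-0.12, 0.11 and -0.48). Of 30 mitosis genes, 29, 29 and 27 passed 2-fold (96.7%, 96.7% and 90.0%), and of 21 measured genes of recombination and Fanconi repair 11, 14 and 14 (52.4%, 66.7% and 66.7%). Against YAP-WT, the YAP-S94A median was 0.51 for the 36 replication genes. It was 0.31 for the other origin and fork factors, 0.22 for wider nucleotide supply, 0.16 for mitosis and 0.16 for repair genes. For YAP-W1W2 against YAP-S94A the median was -0.17 for the 36, and -0.25, -0.24, -0.27 and -0.05 for these lists in the same order. In that order YAP-S94A was above YAP-WT for 33 of 38, 21 of 29, 19 of 30 and 13 of 21 genes. YAP-W1W2 was above YAP-WT for 19, 15, 9 and 10 of them, and below YAP-S94A for 32, 21, 27 and 12. Directions between YAP forms were not counted over all measured genes. Whether the lists differ was not tested.

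**Figure D5:**
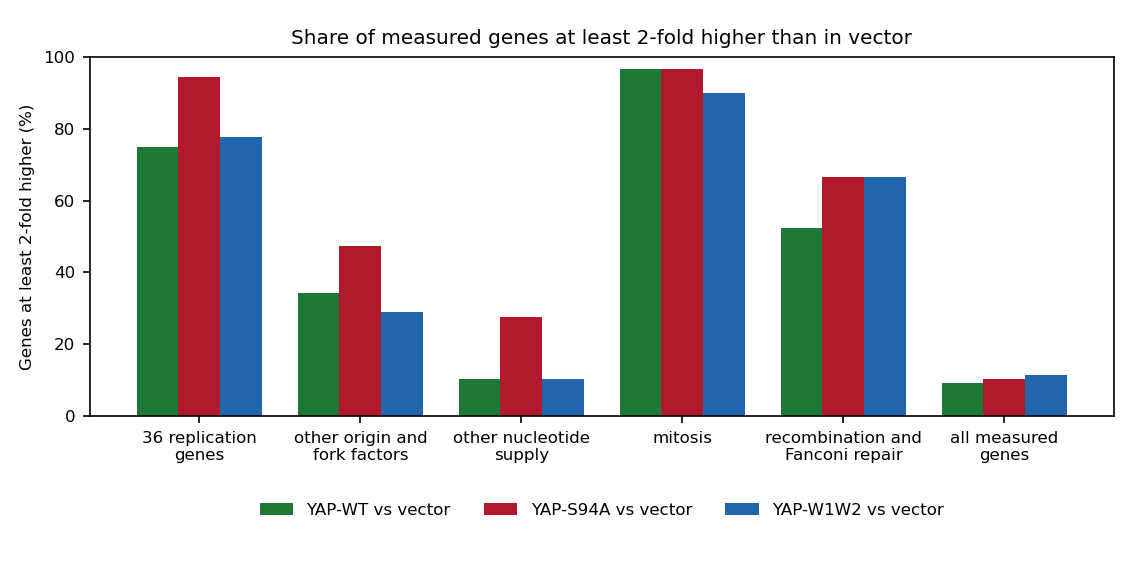
Percentage of measured genes at least 2-fold higher than in vector on the YAP-WT, YAP-S94A and YAP-W1W2 arrays, for the 36 replication genes, 4 related lists and all measured genes. The replication genes stand at 75.0%, 94.4% and 77.8%, and all measured genes at 9.11%, 10.3% and 11.4%.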

How the data were processed

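Trizol-extracted RNA of 4 MCF10A cultures was made into biotinylated cRNA and hybridized to Affymetrix arrays, per the labels' protocols. What the authors deposited are linear-scale probe set intensity values. GCOS is the software that the submitters' processing notes name, with no version, and how it scaled the arrays or subtracted background is not stated there. Trimming 2% of probe sets at each end, array means lay between 458.4 and 503.3 (ratio 1.098), and values were used as deposited. Of 54675 probe sets, 62 were controls, 41097 had 1 gene symbol in the platform annotation, 1801 several and 11777 none, and only the first were used. Of these, 41043 were matched by Entrez identifier to the RefSeq gene table of GRCh38.p14.

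Intensities were floored at the 40th percentile, 72.9, and log2 transformed. Each gene took its brightest probe set by mean over the 4 arrays. Genes were called at 2-fold with Python 3.11.15, pandas 2.3.3 and NumPy 2.4.6, and the procedure was tested on simulated data. The number of arrays, 1 in each group, limits the precision, and no test was made. The members, gene lists and motifs were chosen with earlier results of these data known. Every member could be named, and from each related list the 3 highest and 3 lowest by mean log2 fold. The other origin recognition, RPA and polymerase delta subunits were named outside this rule, to stand beside members of the same complexes, after their values were seen. Other scalings, floors, dim-gene filters and probe set choices were tried.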

Additional observations from a re-analysis of the deposited data

How the results depend on the processing

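Over 7 alternatives (2 scalings, 2 floors, no dim-gene filter and 2 probe set choices), 275 of 294 recomputed counts and medians stayed within 1.5 times (counts) or 0.25 on the log2 scale (medians). The other 19 follow. With probe sets whose names lack the _s_at or _x_at suffix, which leaves 27 members, 16 were at least 2-fold higher with YAP-WT and 22 with YAP-S94A than in vector, and 0 with YAP-W1W2 than with YAP-WT. The median log2 fold over vector was then 1.59 with YAP-S94A and 1.33 with YAP-W1W2. For helicase genes it was 1.28 for YAP-WT, 1.66 for YAP-S94A and 1.33 for YAP-W1W2, and 0.78 for YAP-S94A against YAP-WT. For licensing genes, 2 of which remained, it was 2.80 with YAP-S94A and 2.87 with YAP-W1W2, and for nucleotide genes 2.02 and 2.07. With the mean over probe sets, 2 members passed 2-fold with YAP-S94A against YAP-WT, 0 with YAP-W1W2 against YAP-WT, and 0 were lower with YAP-W1W2 than with YAP-S94A; the helicase median was 2.01 with YAP-S94A and the licensing median 2.12 with YAP-W1W2, both over vector. With median centring, 2 members passed with YAP-W1W2 against YAP-WT.

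Among single members, 3 called folds changed sign, all with the suffix restriction, where the fold over vector was -0.37 for GINS2 with YAP-WT, and -0.10 with YAP-WT and -0.32 with YAP-S94A for POLA2. Over all alternatives and comparisons, 24 recomputed folds fell short of 2-fold and 5 newly passed it. These include genes whose chosen and alternative probe sets differ. For the rest the cause was not tested. Median centring moved the share of higher among called genes from 41.2% to 57.7% for YAP-W1W2 against YAP-WT and from 52.8% to 65.1% against YAP-S94A, and the median of all genes over vector from 0.14 to -0.03 with YAP-WT and to -0.01 with YAP-S94A. Counts of directions and of the highest array under each alternative were added after seeing the data. No paired analysis was possible because each group has 1 array. Signals near the floor of 72.9, as for ORC1 and GINS4 in vector, give bounds only.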
